A study of Mus musculus with 18 samples.

Results

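The genes described here encode the subunits of potassium channels. They were chosen by name, as the symbols in the RNA-Seq count files that start with Kcn, without the antisense transcript Kcnq1ot1 and without symbols that end in -ps or os. This gave 94 of the 34620 genes listed, of which 79 had enough counts to be tested, among 17421 tested genes in all. Tissue came from the granule cell layer of the ventral dentate gyrus, microdissected from the brains of Swiss Webster males at an age of 8 to 12 weeks. RNA-Seq counts were available for 6 libraries, 2 from WT, 2 from F1 and 2 from F2 males. The study asked which genes differ in granule cells of males whose mother, or grandmother, lacked a copy of the serotonin 1A receptor gene.

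All animals of the 3 groups carried both copies of the receptor gene themselves. WT males had a WT mother and a WT grandmother and came from a separate WT line kept in parallel. F1 males were the WT offspring of crosses between heterozygous (5HT1A-/+) mice. F2 males were born to F1 females mated with WT males, so that the mother was WT and the maternal grandmother 5HT1A-/+. The animals came from at least 3 litters, and how many were used for a library was not given in the sources used here. The WT reference was therefore a separate line, and line and maternal history cannot be told apart. The p-values below rest on the spread between the 2 libraries of a group, pooled over the 3 groups and drawn toward that of other genes. The same 2 WT libraries served as reference for F1 and for F2.

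Potassium channels let potassium ions leave or enter the cell along their gradient and so set the resting potential, end the action potential and space the spikes of a train. Voltage-gated (Kv) subunits open on depolarization, inward rectifiers (Kir) hold the resting potential, and the subunits with a pair of pore domains (K2P) carry a background leak. Other channels open on intracellular calcium or sodium. Auxiliary subunits form no pore but bind to pore-forming ones and change their gating or delivery to the membrane. Dentate granule cells are known for a very negative resting potential and sparse firing, to which inward rectifiers and leak channels contribute, and astrocytes clear potassium from the extracellular space through an inward rectifier of their own.

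Pore-forming subunits share a short signature, the selectivity filter, whose core reads glycine, tyrosine and glycine, or glycine, phenylalanine and glycine. The codons for it were searched in frame on the coding strand of the longest complete coding sequence of each gene in GENCODE M1 (mm9), as 4 codons in a row: NTN, GGN, TAN and GGN for the tyrosine form, and NTN, GGN, TTN and GGN for the phenylalanine form, with C or T as the last base of TAN or TTN. They were present in 72 of the 93 potassium channel genes with a complete coding sequence (77.4%), against 887 of 21637 genes of all kinds (4.099%). Of the 72 genes, 57 held the tyrosine form and 23 the phenylalanine form, and 11 held filter codons more than once. Those 11 were all Kcnk genes, the K2P class. The auxiliary families Kcnab, Kcne, Kcnip and Kcnmb had none, nor did Kcnrg, a regulator, while the pore-forming Kcnk1, Kcnk7, Kcnma1 and Kcnh8 had none in the sequence searched. Of the 13 genes that passed the test below, 12 held filter codons, and 8 of these are printed with 27 bases on each side to show the feature that marks a pore-forming subunit, whether or not its level changed. Each stretch is the coding strand of the reference, 5′ to 3′, with the filter codons in capitals.

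Kcnj4: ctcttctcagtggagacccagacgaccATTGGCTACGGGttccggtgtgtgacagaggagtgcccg
Kcna1: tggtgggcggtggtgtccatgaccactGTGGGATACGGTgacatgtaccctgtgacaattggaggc
Kcna2: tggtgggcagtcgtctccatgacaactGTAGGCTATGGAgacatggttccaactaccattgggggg
Kcna3: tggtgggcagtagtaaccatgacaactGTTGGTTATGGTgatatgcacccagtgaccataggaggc
Kcnf1: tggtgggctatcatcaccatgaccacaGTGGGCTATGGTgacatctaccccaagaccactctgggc
Kcnv1: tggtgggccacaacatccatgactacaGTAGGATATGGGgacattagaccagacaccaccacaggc
Kcnh7: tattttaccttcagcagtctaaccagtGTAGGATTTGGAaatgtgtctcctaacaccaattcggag
Kcnt1: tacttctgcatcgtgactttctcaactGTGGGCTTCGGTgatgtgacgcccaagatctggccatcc

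The Kcna, Kcnf and Kcnv stretches begin alike with tggtggg, and the inward rectifier Kcnj4 with ctcttctc. Kcnh7 and Kcnt1 hold the phenylalanine form. Each of the 8 stretches lies within an exon. Kcne1l, also among the 13, encodes an auxiliary subunit.

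Each library had from 26358165 to 33727936 reads on genes, and potassium channel genes took between 0.408% and 0.478% of them. Levels are in CPM, which divides a gene's count by the reads on genes in that library, adjusted by its TMM factor. The share of uniquely aligned reads that lay outside annotated exons was 17.7% and 20.7% in WT, 13.8% and 12.2% in F1, and 13.9% and 17.4% in F2, and was thus higher in both WT libraries than in any other. Markers of granule cells were well covered, with Prox1 between 228 and 345 CPM, whereas Ttr, the main transcript of the choroid plexus, stayed between 0.187 and 1.1 CPM. Markers of glia and interneurons were present as well, so that the tissue was not made of granule cells alone. In such tissue, fewer cells of a type and less RNA per cell cannot be told apart.

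Compared per length of exon, the most abundant of the genes were auxiliary. Kcnab2, the beta subunit that binds Kv1 channels, averaged 95.7 CPM per kb over the 6 libraries, and Kcnip2, a calcium-binding partner of Kv4 channels, 83.8 CPM per kb. Among pore-forming genes, the inward rectifier Kcnj4 was highest (46.8 CPM per kb), followed by the leak channel gene Kcnk1 (43.4 CPM per kb). Kcnj9 and Kcnj3, subunits of the G protein-gated GIRK channels, stood at 39.3 and 35.1 CPM per kb. The Kv3 gene Kcnc4 reached 35.3 CPM per kb, and the Kv4 gene Kcnd2 31.5 CPM per kb. These values rest on GENCODE M1 exon lengths, and the annotation behind the counts was not given in the sources used here. Neighbours in this order mostly overlapped between libraries: Kcnj4 ranged from 32.8 to 61 CPM per kb and Kcnk1 from 37.6 to 47 CPM per kb.

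**Figure D1:**
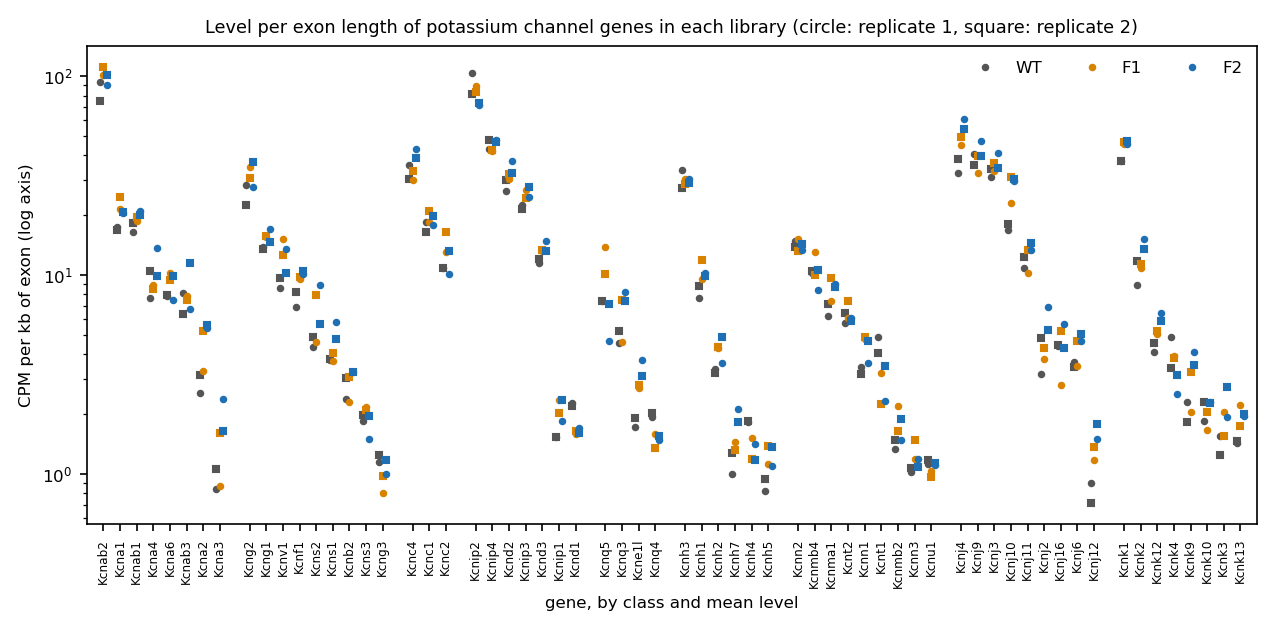
CPM per kb of exon (log axis) for 63 potassium channel genes with a mean of at least 1 CPM per kb, ordered by class and then by mean level; each point is a library, with WT in grey, F1 in orange and F2 in blue. Kcnab2 and Kcnip2 are at the top, and the libraries of a gene lie close together against the distance between genes.

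Most of the 79 tested genes were somewhat higher in F1 and F2 than in WT, by small amounts. Summed over all potassium channel genes, the level was 4304 and 4041 CPM in WT, 4487 and 4792 CPM in F1, and 4625 and 4631 CPM in F2, so that the WT libraries were the lowest. The median log2 fold change was 0.20 in F1 and 0.27 in F2, against 0.01 and 0 over all tested genes. Positive values numbered 56 of 79 in F1 and 61 of 79 in F2, against 8869 and 8703 of all 17421 tested genes. Both F1 libraries lay above both WT libraries for 39 of the 79 genes, where 29.8% of all tested genes did so, and below for 9, where 30.6% did. For F2 the numbers were 41 above (31% of all genes) and 10 below (32% of all genes).

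Few of these differences passed the test for the gene itself. By the exact test of edgeR, with p adjusted after Benjamini and Hochberg and a threshold of q under 0.01, 5 genes differed between F1 and WT, where 12.3% of all tested genes did. Kcnj10, Kcnv1, Kcna1 and Kcnq5 rose (4 genes, against 3.77% of all genes) and Kcnt1 fell (1 gene, against 8.54%). In F2, 9 genes differed, where 12% of all tested genes did. All 9 rose (against 3.86% of all genes), among them Kcnj10, Kcnj4, Kcnh7, Kcna2, Kcnj12, Kcne1l, Kcnf1 and Kcna3. None passed as lower in F2, where 8.1% of all genes did, and the quasi-likelihood test and DESeq2 also gave 0. Kcnt1 did pass as lower in F2 in 2 of 13 other analyses, 1 of them with the dispersion of the pair compared. At an unadjusted p under 0.05 by the exact test, 26 of the 79 genes were higher in F1 (14.4% of all genes) and 5 lower (18.2%), and 34 were higher in F2 (14.6%) and 6 lower (17.8%). Kcnj10 was the only gene that passed in both F1 and F2, where 7.67% of all genes passed with the same sign. Stricter was edgeR's quasi-likelihood test, which called Kcnj10 in F1 (1 gene, against 5.91% of all genes) and 4 genes in F2 (against 5.72%), with Kcnj10, Kcnj4 and Kcnh7 among them.

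**Figure D2:**
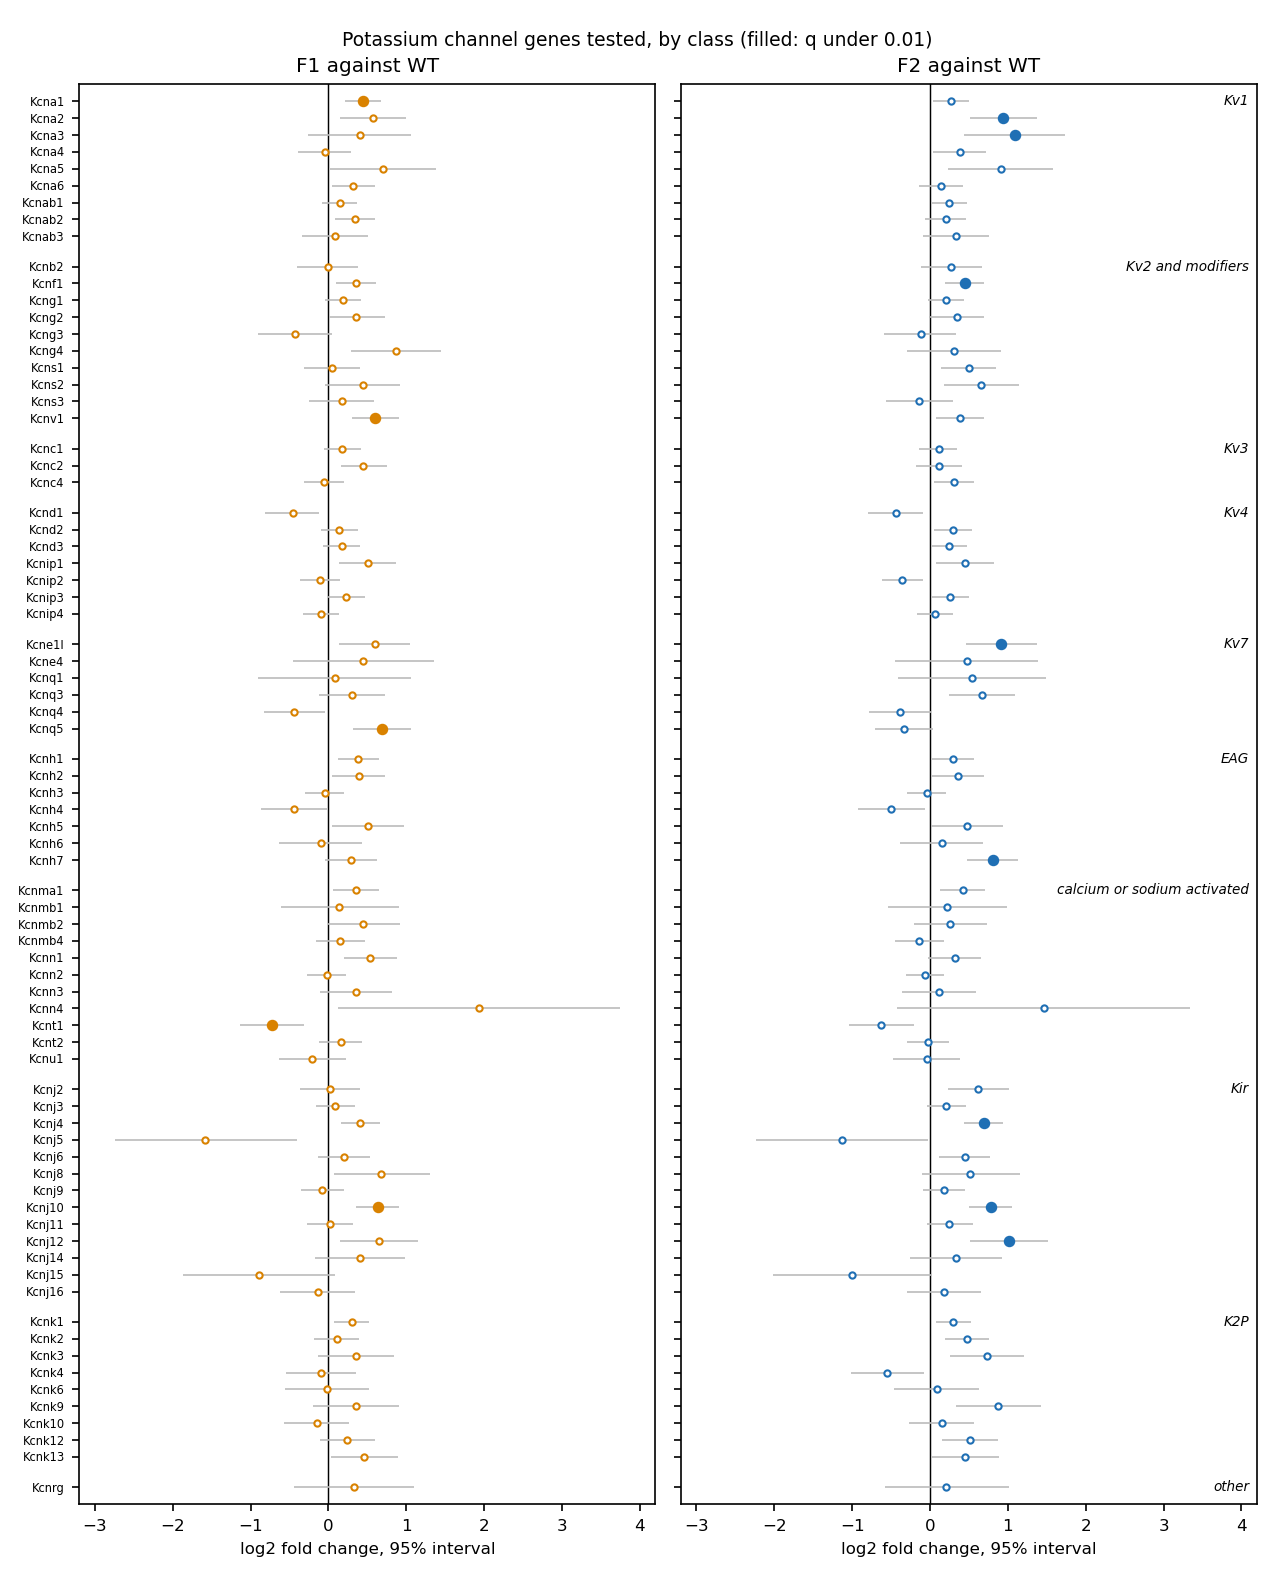
Log2 fold change against WT with its 95% interval for 76 of the 79 tested potassium channel genes, by class, in F1 (left) and F2 (right); filled points passed q under 0.01. Points lie mostly right of 0 in both panels, with 5 filled in F1 and 8 in F2.

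**Figure D3:**
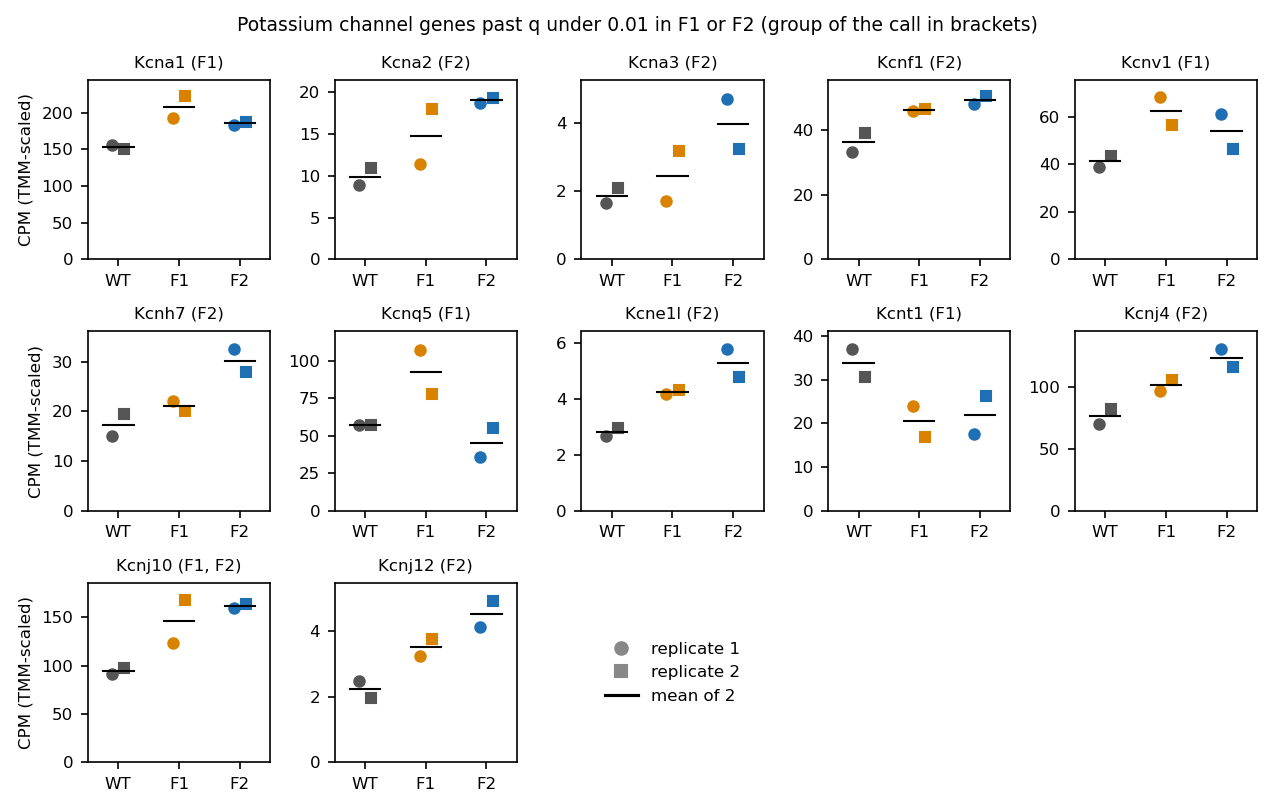
CPM in each library (linear axis from 0) for 12 of the 13 genes that passed q under 0.01 in F1 or F2, with the group of the call in brackets; circles are replicate 1, squares replicate 2 and lines the mean of the 2 libraries. In 10 of the panels the F1 and F2 means lie above the WT mean, in Kcnq5 F2 lies below WT, and in Kcnt1 both lie below.

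Inward rectifiers include Kcnj10, the gene that passed in both F1 and F2. Of 13 tested Kcnj genes, 1 rose in F1 (3.77% of all tested genes did) and 3 rose in F2 (3.86%). None fell in either, where 8.54% and 8.1% of all genes did, and the quasi-likelihood test and DESeq2 also gave 0. At an unadjusted p under 0.05 by the exact test, 1 was lower in each, where 18.2% and 17.8% of all genes were. The summed level of the class was 554.5 and 583.5 CPM in WT, 592.3 and 716.3 CPM in F1, and 796.4 and 720.4 CPM in F2. Kcnj10 encodes Kir4.1, the inward rectifier through which astrocytes and oligodendrocytes take up potassium. Its gene lies on the plus strand at chr1:174271341-174304216. Kcnj10 stood at 91.2 and 97.8 CPM in WT, 124 and 168 CPM in F1, and 160 and 164 CPM in F2. All 4 F1 and F2 libraries lay above both WT libraries. Its log2 fold change was 0.63 ± 0.14 (SE) in F1, with an adjusted p of 0.000209 by edgeR's exact test, and 0.78 ± 0.14 in F2, with an adjusted p of 2.1e-06. The F2 call held with any library left out (0.74 to 0.84), whereas the F1 call was lost without WT replicate 1 (log2 0.58, adjusted p = 0.0212) and without F1 replicate 2 (log2 0.40, adjusted p = 0.0367).

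In sum, astrocyte markers were higher in F1 and F2, like Kcnj10. Summed over the 11 markers, their level was 2630 and 2847 CPM in WT, 3156 and 3838 CPM in F1, and 4316 and 3607 CPM in F2, with no overlap between WT and the others. Of the 11, 1 rose in F1 (Aldh1l1), where 3.77% of all tested genes did. In F2, 5 rose (Gfap, Aldh1l1, Slc1a2, Gja1 and Aldoc), where 3.86% did, and all 11 were detected. Of 14 oligodendrocyte markers, 5 rose in F1 and 3 in F2, where 3.77% and 3.86% of all genes did. Their summed levels were 1181 and 2136 CPM in WT, 3212 and 2421 CPM in F1, and 1685 and 3133 CPM in F2. The part of either cell type in the Kcnj10 result was not tested. Kcnj16, which encodes Kir5.1 and pairs with Kir4.1 in glia, did not pass in either comparison: it stood at 17.3 and 17.5 CPM in WT, 11 and 20.5 CPM in F1, and 22.3 and 17 CPM in F2, overlapping in both comparisons. Its log2 fold change was -0.14 in F1 (95% interval -0.62 to 0.34) and 0.18 in F2 (-0.30 to 0.65).

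**Figure D4:**
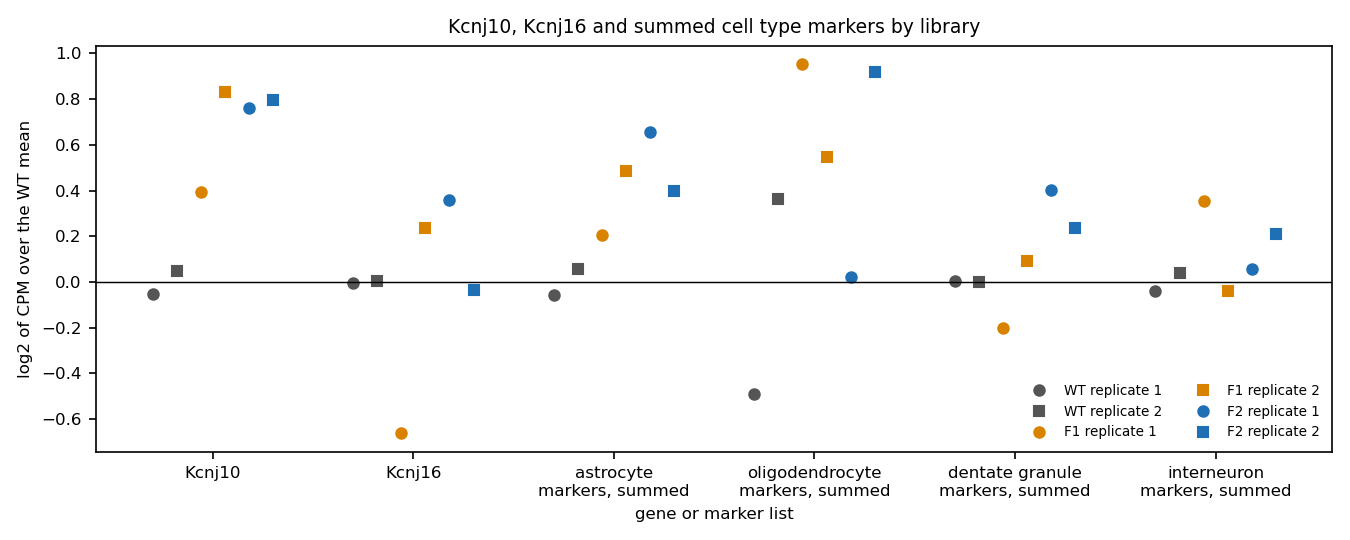
Log2 of CPM over the WT mean in each library for Kcnj10, Kcnj16 and the summed markers of 4 cell types; grey is WT, orange F1 and blue F2. For Kcnj10 and for the astrocyte markers all F1 and F2 points lie above both WT points, while those of Kcnj16 overlap WT in both groups and those of the oligodendrocyte markers do so in F2.

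Kcnj4 and Kcnj12 encode Kir2.3 and Kir2.2, strong inward rectifiers of neurons and other excitable cells. Kcnj4 lies on the minus strand at chr15:79314148-79335671, with the filter codons at chr15:79315797-79315808. Kcnj4 stood at 70.4 and 82.6 CPM in WT, 96.8 and 106 CPM in F1, and 131 and 116 CPM in F2. The 3 groups did not overlap, and F2 was highest. The log2 fold change was 0.69 ± 0.13 in F2 (edgeR exact test, adjusted p = 4.21e-06), a call kept with any library left out (0.59 to 0.82). In F1 it was 0.41 ± 0.13 and missed the threshold (adjusted p = 0.0125). Kcnj12, on the plus strand at chr11:60836066-60884633, was far less abundant, at 2.47 and 1.97 CPM in WT, 3.23 and 3.76 CPM in F1, and 4.11 and 4.9 CPM in F2. Here too the groups did not overlap. It rose in F2 by 1.01 ± 0.25 on the log2 scale (exact test, adjusted p = 0.00108). The Kcnj12 call was lost without either WT replicate 1 or 2 (adjusted p = 0.0134 and 0.0554) and without F2 replicate 1 or 2 (0.0105 and 0.0625). Kcnj2, the Kir2.1 gene of the same family, stood at 17.3 and 26.1 CPM in WT, 20.5 and 23.5 CPM in F1, and 37.7 and 28.9 CPM in F2, with an adjusted p of 0.0148 in F2. Both F2 libraries were above WT, and F1 was not. Granule cell markers, summed over 11 genes, stood at 1676 and 1671 CPM in WT, 1454 and 1784 CPM in F1, and 2213 and 1969 CPM in F2, with Fam163b higher in F2 and Trpc6 lower in F1 and F2 past the threshold. In F2, 1 of the 11 rose and 1 fell, where 3.86% and 8.1% of all genes did. In F1 none rose and 1 fell (3.77% and 8.54%). By log2 fold change, 9 of 11 were positive in F2 (median 0.33) and 5 of 11 in F1 (median -0.1). It was the sum that lay higher in both F2 libraries, like the Kir2 genes. The part of granule cells in the Kir2 and the other F2 results was not tested.

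The GIRK genes Kcnj3, Kcnj5, Kcnj6 and Kcnj9 encode the channels that G protein-coupled receptors open, the serotonin 1A receptor among them. None passed in F1 or F2 by the exact test (12.3% and 12% of all tested genes did) or the quasi-likelihood test (5.91% and 5.72%). With so few genes, this tells little about the family. Kcnj3 stood at 163 and 178 CPM in WT, 173 and 190 CPM in F1, and 215 and 180 CPM in F2. Its exons overlap a noncoding gene on the opposite strand over 31.08% of their length, and the library kit did not mark strand, so that reads of the 2 genes cannot be told apart there. Kcnj9 stood at 134 and 117 CPM in WT, 107 and 130 CPM in F1, and 154 and 130 CPM in F2, and overlapped throughout. Kcnj6 was lower in abundance, with 21.3 and 20.1 CPM in WT, 20.2 and 27.3 CPM in F1, and 27.1 and 29.4 CPM in F2. On the log2 scale Kcnj6 differed by 0.20 in F1 (exact test, adjusted p = 0.43) and 0.45 in F2 (adjusted p = 0.0382). It did pass as higher in F2 in 1 of 13 other analyses, that with the dispersion of the pair compared. Kcnj5 was barely detected, with 0.529 and 0.458 CPM in WT, 0.132 and 0.194 CPM in F1, and 0.15 and 0.297 CPM in F2, so that all 4 libraries lay below WT. Kcnj5 had a log2 fold change of -1.58 ± 0.60 in F1 (adjusted p = 0.0352) and -1.13 ± 0.57 in F2 (adjusted p = 0.148). The receptor gene itself, Htr1a, differed by -0.18 in F1 and 0.20 in F2 on the log2 scale and passed in neither.

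Kv1 channels sit on axons and near the spike initiation site, where they oppose repetitive firing. All 9 tested genes of the class had a positive log2 fold change in F2 and 8 of 9 in F1. Over the tested potassium channel genes the numbers were 61 of 79 and 56 of 79. Over all genes they were 8703 and 8869 of 17421. Past the threshold, 1 rose in F1 (3.77% of all tested genes did) and 2 rose in F2 (3.86%). Kcna1, the Kv1.1 gene, lies on the minus strand at chr6:126586481-126595819, with the filter codons at chr6:126592246-126592257. Kcna1 stood at 156 and 151 CPM in WT, 193 and 223 CPM in F1, and 184 and 187 CPM in F2. Both later groups lay above WT, and F1 was highest. It rose in F1 by 0.44 ± 0.12 on the log2 scale (exact test, adjusted p = 0.00265), and the F2 value of 0.27 ± 0.12 did not pass (adjusted p = 0.0878). The F1 call was lost without WT replicate 1 (adjusted p = 0.0309), WT replicate 2 (0.0442) or F1 replicate 2 (0.0815).

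Kcna2 encodes Kv1.2, the usual partner of Kv1.1 in axons, and lies on the plus strand at chr3:106904485-106909797 with the filter codons at chr3:106908145-106908156. Kcna2 stood at 8.85 and 10.9 CPM in WT, 11.4 and 18 CPM in F1, and 18.7 and 19.3 CPM in F2. The F2 libraries lay close together above all others, and the F1 libraries were far apart. The rise in F2 was 0.94 ± 0.22 on the log2 scale (exact test, adjusted p = 0.000317), and in F1 the value was 0.57 ± 0.22 (adjusted p = 0.0449). The F2 call was lost without WT replicate 1 (adjusted p = 0.0442), F2 replicate 1 (0.012) or F2 replicate 2 (0.0152). Kcna3, the Kv1.3 gene that microglia and other immune cells also express, lies on the plus strand at chr3:106839080-106841047 with the filter codons at chr3:106840532-106840543. Kcna3 stood at 1.65 and 2.08 CPM in WT, 1.72 and 3.17 CPM in F1, and 4.71 and 3.23 CPM in F2. F2 was above WT, whereas F1 overlapped it. Its log2 fold change in F2 was 1.09 ± 0.33 with an adjusted p of 0.00956 by the exact test, just inside the threshold. The call held in 3 of 13 other analyses and was lost without WT replicate 1 (0.192), WT replicate 2 (0.038), F2 replicate 1 (0.261) or F2 replicate 2 (0.0131).

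Microglial markers were higher along with Kcna3 in F2: 6 of 10 rose, where 3.86% of all tested genes did. In F1, 1 of 10 rose, where 3.77% did. The markers summed to 164.8 and 162.9 CPM in WT, 199.4 and 235.9 CPM in F1, and 262.5 and 229.9 CPM in F2. Their part in the Kcna3 result was not tested. Kcnk13, a K2P gene typical of microglia, stood at 4.44 and 4.54 CPM in WT, 6.93 and 5.41 CPM in F1, and 6.09 and 6.2 CPM in F2, above WT in all 4 libraries and past the threshold in neither comparison (adjusted p = 0.13 and 0.136). Kcnn4, a calcium-activated channel gene of immune cells, had at most 0.421 CPM in any library.

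Of the other Kv1 genes, Kcna4, whose channel inactivates fast, stood at 37 and 50.5 CPM in WT, 43.1 and 41.3 CPM in F1, and 66.1 and 47.9 CPM in F2, overlapping in both comparisons. Kcnab2, the most abundant auxiliary gene, stood at 520 and 419 CPM in WT, 570 and 618 CPM in F1, and 507 and 570 CPM in F2. F1 was above WT, and F2 was not. Its adjusted p was 0.05 in F1 and 0.308 in F2. Kcna6 shares 39.49% of its exon length with a noncoding gene on the opposite strand, and its values (0.32 in F1 and 0.14 in F2, log2) are uncertain for that reason.

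Kv2 subunits carry the delayed rectifier current of cell bodies and dendrites, and the Kcnf, Kcng, Kcns and Kcnv genes encode silent subunits that form no channel alone but modify Kv2. Of 11 tested genes in these families, none was lower in F1 or F2 at an unadjusted p under 0.05 by the exact or the quasi-likelihood test. By the exact test, 18.2% of all genes were lower at that p in F1 and 17.8% in F2. Higher at that p were 5 of the 11 in F1 (14.4% of all genes) and 5 in F2 (14.6%). The class summed to 226 and 241.1 CPM in WT, 289.6 and 299.7 CPM in F1, and 319.1 and 292.2 CPM in F2, without overlap between WT and the others.

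Kcnf1 and Kcnv1, both silent subunits, are encoded on the minus strand. Kcnf1, at chr12:17178908-17183694 with the filter codons at chr12:17181867-17181878, stood at 33.2 and 39.2 CPM in WT, 45.9 and 46.6 CPM in F1, and 48.2 and 50.5 CPM in F2. All F1 and F2 libraries were above WT. The log2 fold change in F2 was 0.45 ± 0.13 (exact test, adjusted p = 0.00597), and 0.35 ± 0.13 in F1 (adjusted p = 0.0352). Without WT replicate 1 (adjusted p = 0.165), F2 replicate 1 (0.0553) or F2 replicate 2 (0.0956), Kcnf1 no longer passed in F2. Kcnv1, at chr15:44937830-44946480 with the filter codons at chr15:44940835-44940846, stood at 38.8 and 43.6 CPM in WT, 68.3 and 56.6 CPM in F1, and 61.2 and 46.3 CPM in F2. F1 and F2 were both above WT, with 1 F2 library close to it. The rise passed in F1 (0.60 ± 0.15, exact test, adjusted p = 0.00137) and not in F2 (0.38 ± 0.15, adjusted p = 0.0595). It was lost in F1 without WT replicate 1 (adjusted p = 0.0621) or F1 replicate 1 (0.0405). Kcns2, the most abundant Kcns gene, stood at 19.1 and 21.5 CPM in WT, 20.2 and 34.8 CPM in F1, and 39.3 and 24.8 CPM in F2, with a wide spread and adjusted p of 0.204 and 0.0396.

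Kv7 channels underlie the M current, a slow potassium current that muscarinic receptors close and that limits bursts of spikes. Kcnq5 was the gene of this class whose level differed most between the generations. It encodes Kv7.5 and lies on the minus strand at chr1:21388484-21952023. Kcnq5 stood at 57.5 and 56.9 CPM in WT, 107 and 77.6 CPM in F1, and 35.9 and 55.1 CPM in F2. The F1 libraries lay above WT and the F2 libraries below it. The log2 fold change was 0.69 ± 0.19 in F1 (exact test, adjusted p = 0.00288) and -0.33 ± 0.19 in F2 (adjusted p = 0.216). Its F1 call was lost without WT replicate 1 (adjusted p = 0.0455), WT replicate 2 (0.0409) or F1 replicate 1 (0.0936). Compared directly, F2 was lower than F1 by a log2 fold change of -1.02 ± 0.19 (exact test, adjusted p = 3.21e-05). Kcnq5 was the 1 potassium channel gene to pass in that comparison, where 0.74% of all genes did. The quasi-likelihood test called none of them there (0.0115% of all genes), with 11 potassium channel genes at an unadjusted p under 0.05 (9.01% of all genes), 9 higher and 2 lower. Without F1 replicate 1 the direct difference was -0.77 (adjusted p = 0.0137) and without F2 replicate 1 it was -0.74 (0.0492), neither past the threshold. A noncoding gene on the opposite strand overlaps 3.07% of the Kcnq5 exon length.

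Kcnq3, another M channel gene, did not pass. Kcnq3 stood at 12 and 13.7 CPM in WT, 12 and 19.7 CPM in F1, and 21.6 and 19.3 CPM in F2, with an adjusted p of 0.0141 in F2. The class also takes in the Kcne genes, small auxiliary subunits with a single membrane span. Kcne1l, on the minus strand of chromosome X at chrX:138739295-138740837, was the auxiliary gene that passed the test. Kcne1l stood at 2.68 and 2.96 CPM in WT, 4.19 and 4.31 CPM in F1, and 5.79 and 4.79 CPM in F2. The groups did not overlap. Its log2 fold change was 0.91 ± 0.23 in F2 (exact test, adjusted p = 0.00138) and 0.60 ± 0.23 in F1 (adjusted p = 0.0566). The F2 call was lost without WT replicate 1 (adjusted p = 0.0688), WT replicate 2 (0.0162) or F2 replicate 1 (0.0984).

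EAG channels, encoded by the Kcnh genes, include the Erg channels, which dampen repetitive firing. Of 7 tested genes, Kcnh7 alone passed, in F2, where 12% of all tested genes did (12.3% in F1). It encodes Erg3 and lies on the minus strand at chr2:62531471-63022344, with the filter codons at chr2:62615400-62615411. Kcnh7 stood at 15.1 and 19.4 CPM in WT, 22.1 and 20.1 CPM in F1, and 32.5 and 27.9 CPM in F2. F2 was clearly apart from the other libraries, and 1 F1 library lay near WT. The log2 fold change in F2 was 0.81 ± 0.17 (exact test, adjusted p = 3.74e-05), and in F1 0.29 ± 0.17 (adjusted p = 0.218). Its call was lost without WT replicate 1 (adjusted p = 0.0186) or F2 replicate 1 (0.0179). The exons of Gca on the opposite strand overlap 4.57% of the Kcnh7 exon length. Kcnh3, the Kcnh gene with the highest CPM, stood at 124 and 101 CPM in WT, 112 and 106 CPM in F1, and 112 and 107 CPM in F2, within the WT range throughout.

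Kcnt1 was the gene that fell. It encodes Slack, a potassium channel opened by intracellular sodium, and lies on the plus strand at chr2:25719315-25773793, with the filter codons at chr2:25749890-25749901. Kcnt1 stood at 37 and 30.6 CPM in WT, 24.1 and 16.9 CPM in F1, and 17.5 and 26.3 CPM in F2. Every F1 and F2 library lay below both WT libraries. The log2 fold change was -0.72 ± 0.21 in F1 (exact test, adjusted p = 0.0061) and -0.63 ± 0.21 in F2 (adjusted p = 0.0205). In the main analysis the threshold was thus passed in F1 alone. Among 13 other analyses it was passed in 10 for F1 and in 2 for F2. With a library left out, the F2 value ranged from -0.94 to -0.36. Without WT replicate 1 (adjusted p = 0.136), WT replicate 2 (0.0113) or F1 replicate 2 (0.178) the F1 call was lost. Its paralog Kcnt2, the Slick gene, stood at 35.8 and 40.5 CPM in WT, 38.3 and 46.7 CPM in F1, and 38.1 and 37 CPM in F2, overlapping in both. The calcium-activated genes did not pass. Kcnma1, which encodes the BK channel, stood at 29.6 and 33.9 CPM in WT, 35.3 and 45.8 CPM in F1, and 43.1 and 41.7 CPM in F2, above WT in all 4 libraries with an adjusted p of 0.0748 and 0.0306. Kcnmb4, the neuronal BK beta subunit gene, overlapped WT in both, and 20.85% of its exon length overlaps a gene on the opposite strand. Kcnn2, a small-conductance channel gene, ranged from 50.2 to 57.5 CPM in all 6 libraries.

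No Kv3, Kv4 or K2P gene passed the exact test in F1 or F2, where 12.3% and 12% of all tested genes did. The quasi-likelihood test (5.91% and 5.72% of all genes) and DESeq2 called none of them either. With so few genes in each class, the absence of calls tells little about it. Some K2P genes passed as higher in F2 at q under 0.01 in other analyses of all 6 libraries. These were Kcnk2, Kcnk3 and Kcnk9 with the dispersion of the pair compared. Kcnk2 and Kcnk3 also passed by the likelihood-ratio test with a replicate block in which the F2 numbers were crossed. By the likelihood-ratio test with offsets for GC content and exon length, they were Kcnk1, Kcnk3 and Kcnk9, with Kcnk1 higher in F1 as well. At an unadjusted p under 0.05 by the exact test, 1 of 4 Kv3 genes was higher in F1 (14.4% of all genes were) and 1 in F2 (14.6%). Lower at that p were 18.2% of all genes in F1 and 17.8% in F2. The counts were 1 higher and 1 lower of 7 Kv4 genes in F1 and 4 higher and 2 lower in F2, and 2 higher of 9 K2P genes in F1 and 6 higher and 1 lower in F2. Kcnc2, a Kv3 gene of fast-spiking interneurons, stood at 67.4 and 66.6 CPM in WT, 81.1 and 103 CPM in F1, and 62.9 and 81.9 CPM in F2 (adjusted p = 0.0176 and 0.661). Kcnc1, another Kv3 gene of such cells, overlapped WT in F2. Of 10 interneuron markers, 1 rose in F1 and 3 in F2, where 3.77% and 3.86% of all genes did. They summed to 918.3 and 967.9 CPM in WT, 1206 and 916.5 CPM in F1, and 979.6 and 1090 CPM in F2, and their part was not tested. Kcnd2, the main Kv4 gene for the A-type current of dendrites, stood at 137 and 155 CPM in WT, 156 and 166 CPM in F1, and 192 and 167 CPM in F2. Of its calcium-binding partners, Kcnip2 stood at 363 and 282 CPM in WT, 309 and 289 CPM in F1, and 250 and 254 CPM in F2, with a log2 fold change of -0.36 in F2 (adjusted p = 0.0408). Kcnip3 and Kcnip4 differed by at most 0.26 on the log2 scale.

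In the K2P class of leak channels, 6 of 9 log2 fold changes were positive in F1 and 8 of 9 in F2. Among all 17421 tested genes, 8869 were positive in F1 and 8703 in F2. The K2P exception in F2 was Kcnk4 (-0.55, exact test, adjusted p = 0.0906). Kcnk2, the TREK-1 gene, stood at 32.4 and 42.5 CPM in WT, 39.3 and 41.3 CPM in F1, and 54.8 and 49 CPM in F2, and came nearest to the threshold in F2 (log2 0.47 ± 0.15, adjusted p = 0.0109 by the exact test). F2 was above WT, and F1 was within its range. Kcnk1, the TWIK-1 gene, had 86.8 and 86.4 CPM in WT, 105 and 108 CPM in F1, and 106 and 108 CPM in F2. The 4 values of F1 and F2 all lay above WT, and the log2 difference of 0.30 ± 0.11 in each did not pass (adjusted p = 0.0454 and 0.0415). Kcnk3 and Kcnk9, the TASK genes, had log2 fold changes of 0.73 and 0.88 in F2, with adjusted p of 0.0194 and 0.0137. The class summed to 157.4 and 165.8 CPM in WT, 186 and 190.8 CPM in F1, and 206.4 and 205 CPM in F2. The 3 groups did not overlap in that sum.

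Kcnj8, an inward rectifier gene of pericytes, had between 1.21 and 2.4 CPM and passed in neither comparison. The 15 genes with too few counts to be tested were Kcna7, Kcna10, Kcne1, Kcne2, Kcne3, Kcnh8, Kcnj1, Kcnj13, Kcnk5, Kcnk7, Kcnk15, Kcnk16, Kcnk18, Kcnmb3 and Kcnv2, none with more than 12 reads in a library. Kcnj13 and Kcne2, both typical of the choroid plexus, are among them. By role, 4 of 66 tested pore-forming genes rose and 1 fell in F1, where 3.77% and 8.54% of all tested genes did. In F2, 8 rose, where 3.86% of all genes did. Of 13 tested auxiliary genes, 1 rose in F2 (3.86% of all genes) and none passed in F1, where 12.3% of all genes passed.

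Genes that work beside potassium channels without belonging to their families were read from a list of 40, of which 39 were tested. In F1, 2 rose and 1 fell, where 3.77% and 8.54% of all tested genes did, and in F2, 4 rose and 1 fell, where 3.86% and 8.1% did. Dlg2, a scaffold protein of Kv1 and other channels, rose in both: it stood at 71.5 and 81.5 CPM in WT, 107 and 146 CPM in F1, and 144 and 125 CPM in F2 (log2 0.73 and 0.82, adjusted p = 5.5e-05 and 4.52e-06 by the exact test). Abcc8, which encodes the regulatory subunit SUR1 of ATP-sensitive channels, fell in both, with 76.7 and 56.6 CPM in WT, 39.4 and 44.7 CPM in F1, and 38.3 and 44.1 CPM in F2 (log2 -0.66 and -0.69, adjusted p = 0.000356 and 0.000189). The gene for its pore-forming partner, Kcnj11, stood at 33.6 and 38.1 CPM in WT, 31.5 and 40.9 CPM in F1, and 40.8 and 44.7 CPM in F2 and did not pass. Dpp10, a partner of Kv4 channels, rose in F2 (log2 0.53, adjusted p = 0.00046). Gnb1, whose G protein beta subunit opens GIRK channels, rose in F1 (log2 0.38, adjusted p = 0.00678). All of these lists were read as counts of genes, without a test of the list.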

How the data were processed

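The authors perfused brains with RNAlater, microdissected the ventral granule cell layer, and sequenced polyadenylated RNA from an unstranded kit as single-end reads of 50 bp. They aligned reads to mm9 with TopHat, without a search for new junctions, and deposited HTSeq read counts per gene (intersection-strict mode), without normalization. Reads that aligned to several places or reached outside exons are not in these counts, so genes with near-identical copies are undercounted.

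Library replicates differed beyond sampling noise (chi-square over degrees of freedom of 14.3 to 17.5) and were treated as separate. Counts were filtered with filterByExpr, scaled by TMM and compared by the exact test of edgeR 4.0.16 (R 4.3.3), with common and tagwise dispersion over all 6 libraries and Benjamini-Hochberg adjustment over 17421 genes. Standard errors follow from the delta method and 95% intervals from them. The quasi-likelihood and likelihood-ratio tests, DESeq2 1.42.0, other scalings and filters, other dispersions, a replicate block, a threshold of 0.05 and the omission of each library were tried as alternatives. Positions, exon lengths and coding sequences come from GENCODE M1 (mm9), which holds all 94 symbols.

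The genes named are those past the threshold, the most abundant of each subfamily by CPM, and fixed lists of members known from granule cell firing or typical of other cells. Kcna6, Kcnc4, Kcnj5, Kcnj11 and Kcnk4 were added after their values were seen. The members and lists were chosen with earlier results of these data known. A few genes and sequences are not reported here, and the counts and sums of genes include them. Bisulfite sequencing samples were not analysed here.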

Additional observations from a re-analysis of the deposited data

Results flagged for a closer look

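For Kcnq5 the F1 and F2 effects differed by the direct test between the generations. Its log2 fold change against WT was 0.69 in F1 and -0.33 in F2, and F2 against F1 gave -1.02 (edgeR exact test, adjusted p = 3.21e-05, range 1.17e-09 to 0.0545 over the other analyses). Both F1 libraries (107 and 77.6 CPM) lay above both F2 libraries (35.9 and 55.1 CPM), and the 2 libraries within each of these groups differed from each other more than the WT libraries did (57.5 and 56.9 CPM).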

How the results depend on the processing

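With 2 libraries a group, the number of potassium channel genes past the threshold moved with the test, while no log2 fold change that had passed the threshold turned its direction in the comparison it passed, under any alternative run. Calls are given for F1, F2, both, and F2 against F1, and were 5, 9, 1 and 1 in the main analysis. They were 1, 4, 1 and 0 by the quasi-likelihood test, 2 in both by the likelihood-ratio test, and 17 in F2 and 2 in both with the dispersion of the pair compared. A threshold of 0.05 gave 18, 22 and 7 for the first 3 counts. At q under 0.01, the share of all tested genes was counted only for the main analysis and the quasi-likelihood test without a replicate block. The other counts in this section thus do not tell whether potassium channel genes passed more often than the rest. Offsets for GC content and exon length, added after seeing the data, gave 8 in F1 and 2 in both by the likelihood-ratio test. Leaving out each library in turn gave 0 to 9 in F1, 2 to 17 in F2, 0 to 6 in both and 0 to 2 in F2 against F1. Without WT replicate 1 no gene was called in F1, and a group left with a single library is assumed to vary like the others. The median log2 fold change over the tested members ranged from 0.13 (without F1 replicate 2) to 0.24 in F1 and from 0.22 (without WT replicate 1) to 0.31 in F2. DESeq2, RLE factors, library totals and other filters left these counts within 1.5 times. The cause of the changes was not tested.

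Replicate numbers did not pair the libraries: the deviations of same-numbered libraries correlated at -0.00862, -0.0898 and -0.23. With the replicate block the quasi-likelihood test called 1, 5, 1 and 0 members, and the likelihood-ratio test 5, 7, 1 and 1. A block with crossed F2 numbers, added after seeing the data, gave 8, 16, 3 and 2. Over the single genes named, 68 values lost and 51 gained the threshold under an alternative, and 1606 kept their side of it. At the depth of these libraries (at least 26358165 reads on genes), 15 members had too few counts to be tested.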
